A study of Mus musculus with 15 samples.

Results

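Mouse ESCs treated with 4-OHT for 36 h were compared with untreated cells of the same line, over every gene in the deposited read counts. ESCs are pluripotent cells taken from the early embryo, and 4-OHT is an active form of tamoxifen. The comparison holds 4 of the 15 libraries of the series, 2 replicates at 0 h and 2 at 36 h, chosen by their labels alone. Both groups had the genotype Oct4Fl/-; CAG CreER and the strain Mixed 129SV C57BL/6, and by the labels grew in N2B27 medium with PD03 (1 µM), Chiron (3 µM) and LIF. In both groups 1 *Pou5f1* allele was floxed and the other was null, with a β-geo insertion by the methods of the study, and a broadly active CAG promoter drove the 4-OHT-dependent Cre recombinase (CreER). The 36 h cells had 500 nM 4-OHT and the 0 h cells had none. The labels do not say whether the medium stayed the same during 4-OHT treatment, and for other assays on such cells the study moved them to a serum medium (SL) when 4-OHT was added. No library of untreated cells at 36 h, and none of 4-OHT-treated cells without the floxed allele, was analysed here. Loss of *Pou5f1*, exposure to 4-OHT, Cre activity, time in culture and any change of medium therefore cannot be told apart. The labels do not say that replicates came from separate cultures, so a p-value measures the spread between libraries, which may be technical. That spread was estimated over all 10 libraries of this line, at 0, 12, 18, 24 and 36 h. Between replicates the chi-square per degree of freedom was 6.22 at 0 h and 7.76 at 36 h. At 12, 18 and 24 h it was lower, at 4.83, 3.35 and 3.27.

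OCT4, the protein of *Pou5f1*, is a POU-domain transcription factor that binds an octamer element, often beside SOX2, and holds ESCs in the pluripotent state. When it is lost, mouse ESCs are known to move towards trophectoderm, the outer epithelium of the blastocyst that founds the placenta. That epithelium is marked by CDX2, GATA3, EOMES and TFAP2C, by simple keratins and by tight junctions. PD03 inhibits MEK, Chiron inhibits GSK3 and LIF activates STAT3, and together they hold ESCs in a naive state.

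The 4 libraries held 21655083 to 29188893 counted reads. Mitochondrially encoded genes took 8.54% and 9.32% of reads at 0 h and 14.4% and 17.3% at 36 h, and rRNA genes took 0.145% and 0.382% at 0 h and 0.00867% and 0.00537% at 36 h. Both shares differed between the groups, and a fit scaled by total counts without these genes gave 6916 changed genes, against 6948 in the TMM-scaled fit of all genes. The TMM-scaled fit of only the 4 libraries, which used their spread alone, gave 5775. Levels are given as CPM after TMM scaling, in the order replicate 1 and replicate 2. A difference is a log2 fold change of 36 h over 0 h from edgeR with its standard error (SE), and a gene is said to have risen or fallen when its adjusted p was under 0.05 over all genes tested.

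*Pou5f1* (ENSMUSG00000024406), the floxed gene, stood at 330.0 and 324 CPM at 0 h and 115 and 128 CPM at 36 h. Both 36 h libraries lay below both 0 h libraries, and reads of the gene were still plentiful at 36 h (log2 fold change -1.43, SE 0.0450, adjusted p 4.15e-19). The counts cover the whole gene on both alleles, so they do not separate transcripts of the null allele from mRNA that outlasted the deletion. The share of cells in which the floxed allele had recombined was not measured here. The markers of the labelled cell type were present, since the 9 ESC markers summed to 3274 and 3338 CPM at 0 h and 2384 and 2334 CPM at 36 h. Of these 9, 8 changed, 1 higher and 7 lower, and *Pou5f1* itself is among the 7. All 9 trophectoderm markers rose, and their sum went from 350.1 and 336 CPM to 684 and 723 CPM. Primitive endoderm markers summed to 16.9 and 14.7 CPM at 0 h and 37.95 and 37.3 CPM at 36 h, with 2 of 6 higher and 1 lower. *Dab2* made up most of that sum in each library. *Dab2* and *Gata6* were the markers that rose, and *Sox7* fell. Fibroblast markers summed to 23.5 and 23.3 CPM and to 30.0 and 35.9 CPM, with 2 of 7 tested higher, while *Lum* and *Dcn* had at most 3 reads in each library, as did the mesoderm marker *Mesp1*. Neural markers went both ways, with 2 of 4 tested higher and 2 lower. Over all genes tested 19.4% rose and 17.2% fell. With so few markers, the endoderm and fibroblast counts are not far from these shares. In bulk RNA, fewer cells of a type and less RNA per cell cannot be told apart.

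Promoter windows of 3 genes, from RefSeq, are shown for the octamer and for the element of the KLF family, the first for a gene that rose and a gene that fell and the second for a gene that rose and lies beside *Pou5f1*. The sequences run from 250 bases before to 50 bases after a RefSeq start (GRCm38.p6). Capitals mark the octamer, ATGCAAAT on either strand, in the first 2 windows and the KLF letters, GGGTGTGG, in the last.
*Cdx2*, chr5:147307200-147307499, minus strand: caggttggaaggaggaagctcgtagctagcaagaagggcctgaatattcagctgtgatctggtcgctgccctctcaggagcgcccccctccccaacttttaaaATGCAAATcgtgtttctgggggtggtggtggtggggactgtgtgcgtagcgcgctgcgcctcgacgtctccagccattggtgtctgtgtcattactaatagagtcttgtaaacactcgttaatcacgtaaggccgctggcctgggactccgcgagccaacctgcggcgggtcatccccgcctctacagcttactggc
*Zfp42*, chr8:43306960-43307259, minus strand: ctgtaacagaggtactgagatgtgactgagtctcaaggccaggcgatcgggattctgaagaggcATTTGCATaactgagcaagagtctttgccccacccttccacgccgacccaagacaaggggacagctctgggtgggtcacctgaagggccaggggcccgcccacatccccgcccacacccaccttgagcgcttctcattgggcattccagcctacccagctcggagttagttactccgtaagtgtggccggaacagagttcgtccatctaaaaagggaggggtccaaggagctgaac
*Cchcr1*, chr17:35517003-35517302, plus strand: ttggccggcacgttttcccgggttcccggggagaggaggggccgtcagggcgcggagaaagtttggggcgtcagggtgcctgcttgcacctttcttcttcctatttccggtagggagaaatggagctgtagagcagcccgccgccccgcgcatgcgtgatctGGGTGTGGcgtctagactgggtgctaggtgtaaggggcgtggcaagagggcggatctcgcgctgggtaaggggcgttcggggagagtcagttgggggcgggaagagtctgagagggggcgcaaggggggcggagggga
The octamer starts at -147 from the annotated start of *Cdx2* and at -186, on the reverse strand, from that of *Zfp42*. In *Cchcr1* the KLF letters start at -88. The window of *Zfp42*, which fell, also holds the KLF letters, at -75 on the reverse strand, where they are not in capitals. The octamer was in 1.74% of all 32851 windows, in 1.30% of the windows of genes that rose, 1.38% of those that fell and 1.38% of those that did neither, and in 1.38% and 2.34% for genes that rose or fell by a log2 fold change of at least 1. The KLF letters were in 3.56% of all windows, in 3.95% of those of genes tested and not called, and in 6.48% of those of genes that rose by at least 1. TFAP2 letters (GCCNNNGGC) were in 16.6%, 23.3% and 29.5% of the same sets. Genes that fell by as much held the KLF letters in 3.27% of windows and the TFAP2 letters in 14.0%. Letters of the ERR, TEAD, GATA, TCF, CDX and E-box elements were searched too. Windows of genes tested and not called held them in 0.361%, 2.99%, 6.82%, 2.76%, 6.83% and 9.19%. For genes that rose by at least 1 the shares were 0.197%, 3.34%, 6.68%, 2.75%, 5.50% and 7.07%. For genes that fell by as much they were 0%, 3.74%, 10.3%, 4.21%, 8.41% and 6.1%. The sets that rose or fell by at least 1 held only 509 and 214 windows, and 1 gene can have several. The octamer was in 7 and 5 of them and the ERR letters in 1 and 0, so such shares rest on few windows. All these shares describe letters in a window and do not show that a factor bound there.

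The question of the comparison was which genes differ once cells with a floxed *Pou5f1* allele have had 4-OHT for 36 h. Of 18969 genes tested, 6948 changed (36.6%), 3686 higher (19.4%) and 3262 lower (17.2%), and 8455 had an unadjusted p under 0.05. Most changes were small, with a median absolute log2 fold change of 0.40 among the genes that changed and 4223 of them under 0.5. A log2 fold change of at least 1 was seen in 616 genes that rose (3.25%) and 304 that fell (1.6%). Among the 14641 protein-coding genes tested 42.5% changed, 3420 higher and 2803 lower. The median over all genes tested was 0.01. Of the genes that changed, 53.1% were higher with TMM scaling, 36.0% with total-count scaling and 58.0% with total counts taken without mitochondrial and rRNA genes. The median over all genes was -0.08 and 0.03 with the last 2 of these. The CPM of both groups did not overlap in 33.7% of all genes with 36 h higher and in 30.7% with 36 h lower, so a lack of overlap with 2 libraries a group is common here.

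**Figure D1:**
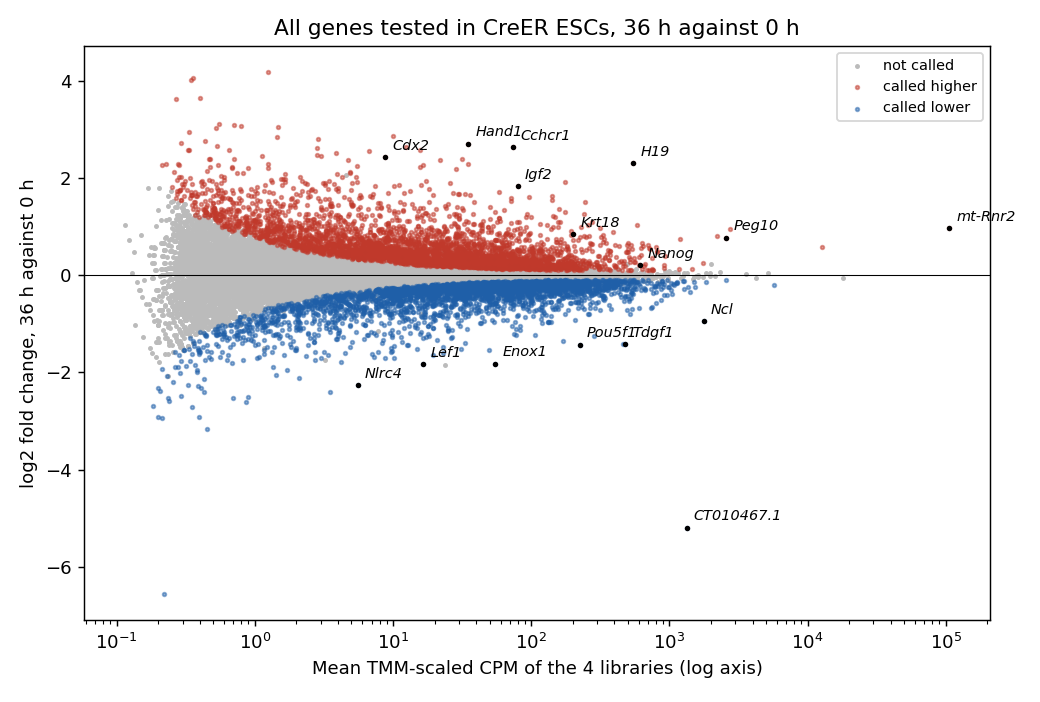
Log2 fold change of 36 h over 0 h (vertical axis) against the mean TMM-scaled CPM of the 4 libraries (horizontal log axis), 1 point a gene, in red for genes that rose, blue for genes that fell and grey for the rest, with named genes in black. *Hand1*, *Cchcr1*, *H19* and *Cdx2* lie high among the rises, and *CT010467.1*, an rRNA gene, lies far below the other abundant genes at -5.19.

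The 12 largest rises among well-covered genes held 3 transcription factors of early lineages. *Hand1*, a factor of trophoblast giant cells, stood at 10.6 and 8.15 CPM at 0 h and 59.6 and 61.99 CPM at 36 h. *Cdx2*, which sets up trophectoderm, stood at 2.81 and 2.67 CPM at 0 h and 14.5 and 14.9 CPM at 36 h. *Gata6*, a factor of primitive endoderm, stood at 0.882 and 0.710 CPM at 0 h and 4.95 and 4.72 CPM at 36 h. These 3 genes, like all 12, were named only if the groups did not overlap, so their separation was fixed by the choice. In the same order, their log2 fold changes were 2.71 (SE 0.0821, adjusted p 3.07e-19), 2.43 (SE 0.141, adjusted p 1.24e-13) and 2.61 (SE 0.207, adjusted p 6.91e-11). *Gata6* had few reads at 0 h, and its level at 36 h remained low.

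The other large rises encode receptors, enzymes, junction and cytoskeletal proteins. *Pth1r*, the receptor of parathyroid hormone and its related peptide, had the largest, from 2.81 and 2.13 CPM to 18.1 and 17.3 CPM (log2 fold change 2.85, SE 0.131, adjusted p 9.89e-16). *Tmprss2*, a transmembrane serine protease, stood at 1.97 and 1.89 CPM at 0 h and 11.7 and 10.997 CPM at 36 h (log2 fold change 2.56, SE 0.138, adjusted p 2.76e-14). *Lcp1*, the actin bundler L-plastin, stood at 4.93 and 4.09 CPM at 0 h and 27.7 and 25.9 CPM at 36 h (log2 fold change 2.58, SE 0.137, adjusted p 1.04e-11). The lack of overlap between groups in these genes was again a condition of their choice. *S100a13* and *S100a1*, calcium-binding proteins whose genes lie side by side on chromosome 3, had log2 fold changes of 2.64 and 2.44, and values of 2.81 for *Ncmap*, 2.52 for *Thsd4* and 2.47 for *Cldn5*, a claudin of tight junctions, were reached from 0 h levels of at most 1.32 CPM. *Cchcr1* was the remaining gene and is described with its neighbours.

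**Figure D2:**
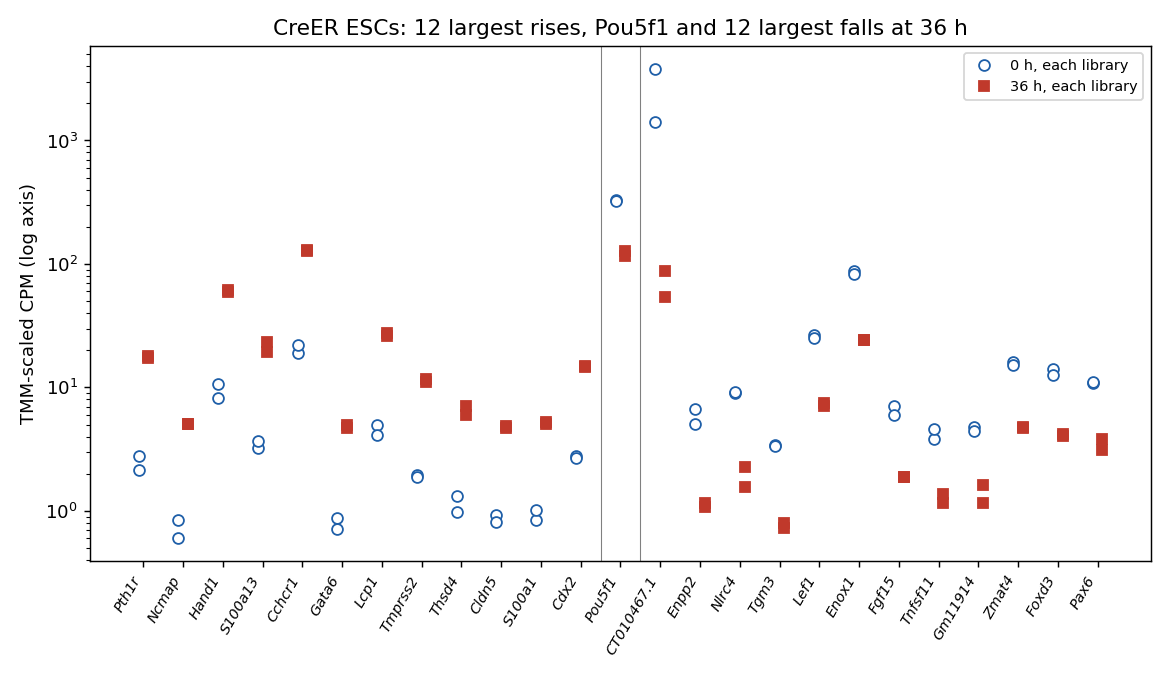
TMM-scaled CPM (vertical log axis) of the 12 largest rises, *Pou5f1* and the 12 largest falls (horizontal axis), with an open circle for each 0 h library and a red square for each 36 h library. The rises and falls were chosen for groups that do not overlap, and the replicates of *CT010467.1* are the most scattered, at 1418 and 3767 CPM at 0 h.

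The largest falls among well-covered genes held 4 genes of the formative and primed epiblast list, *Enpp2*, *Lef1*, *Fgf15* and *Foxd3*, and 1 of the neural list, *Pax6*. *Enpp2*, the secreted enzyme autotaxin, stood at 5.09 and 6.73 CPM at 0 h and 1.09 and 1.17 CPM at 36 h (log2 fold change -2.40, SE 0.202, adjusted p 2.13e-10). *Nlrc4*, an inflammasome protein, stood at 9.07 and 9.27 CPM at 0 h and 1.57 and 2.29 CPM at 36 h (log2 fold change -2.27, SE 0.155, adjusted p 3.57e-12). *Enox1*, an oxidase of the cell surface, stood at 87.9 and 83.5 CPM at 0 h and 24.1 and 24.3 CPM at 36 h (log2 fold change -1.82, SE 0.0585, adjusted p 6.01e-19). The falls too were named only if the groups did not overlap, and of these genes *Enox1* had the tightest replicates. *Fgf15*, an FGF ligand, *Lef1*, *Foxd3* and *Pax6* fell by 1.78, 1.83, 1.70 and 1.69 on the log2 scale, and the last 3 come back with their lists. *Tgm3*, a transglutaminase, *Tnfsf11*, the ligand RANKL, *Zmat4*, a zinc finger gene, and *Gm11914*, a processed pseudogene, had values of -2.13, -1.75, -1.70 and -1.71, and reads of the pseudogene may belong in part to its parent gene.

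The remaining fall, that of *CT010467.1*, was of an rRNA gene in rRNA-depleted libraries, at 1418 and 3767 CPM at 0 h and 87.1 and 53.6 CPM at 36 h (log2 fold change -5.19, SE 0.945, adjusted p 0.0093). This gene makes up nearly all of the rRNA share of the libraries. Its call was lost in the fit of only the 4 libraries, and without replicate 1 or replicate 2 of 36 h, where the log2 fold change was -5.60 and -4.90. Without replicate 2 of 0 h the value was -4.32.

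By the size of the change in CPM, the largest gains were those of the mitochondrial rRNA genes *mt-Rnr2* and *mt-Rnr1*, of *mt-Co1*, of *Peg10* and of *Slc2a3*. *Slc2a3*, the glucose transporter GLUT3, stood at 1633 and 1598 CPM at 0 h and 2788 and 2821 CPM at 36 h (log2 fold change 0.80, SE 0.0363, adjusted p 8.82e-16). *Peg10*, an imprinted gene of retroviral origin that the placenta needs, had a log2 fold change of 0.77 (SE 0.0426). The replicates of both genes were close together. The largest losses beside *CT010467.1* were *Ncl*, *Hsp90ab1*, *Tdgf1* and *L1td1*. *Ncl*, the nucleolar protein nucleolin, stood at 2287 and 2371 CPM at 0 h and 1467 and 962 CPM at 36 h, with an unequal pair at 36 h (log2 fold change -0.94, SE 0.190, adjusted p 0.014), and its call was lost without replicate 1 or 2 of 0 h, at -0.96 and -0.91, and in the fit of only the 4 libraries. The chaperone gene *Hsp90ab1* was lower by a small amount (-0.20, SE 0.0336).

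Pluripotency genes mostly fell. Of 31 factors and ESC-restricted effectors, 22 fell and 4 rose, with a median log2 fold change of -0.37 against 0.01 over all genes, where 17.2% fell and 19.4% rose. These shares of all genes are the background for the counts of every list below, and some lists lie near them. Among 16 ESC-restricted effectors 13 fell and 2 rose, among 12 naive factors 8 fell and 1 rose, and the 3 core factors went apart. *L1td1*, an RNA-binding protein of LINE-1 origin, stood at 665 and 678 CPM at 0 h and 273 and 228 CPM at 36 h (log2 fold change -1.42, SE 0.0598, adjusted p 1.22e-11). *Tdgf1*, the NODAL co-receptor CRIPTO, stood at 656 and 735 CPM at 0 h and 266 and 257 CPM at 36 h (log2 fold change -1.41, SE 0.0469, adjusted p 2.05e-18). *Nr0b1*, the nuclear receptor DAX1, stood at 25.4 and 25.8 CPM at 0 h and 10.3 and 11.2 CPM at 36 h (log2 fold change -1.25, SE 0.0888, adjusted p 7.22e-12). The groups did not overlap in any of the 3 genes, and all 3 were well under their 0 h level. For *L1td1* and *Tdgf1*, named by their loss in CPM, that lack of overlap was a condition of the choice. *Gdf3*, a ligand of the NODAL class, fell by 1.06 on the log2 scale.

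Some core and naive factors rose or changed little. *Nanog* stood at 578 and 572 CPM at 0 h and 671 and 648 CPM at 36 h, a small rise (log2 fold change 0.20, SE 0.0375, adjusted p 0.000119). *Sox2* had a log2 fold change of -0.15 (adjusted p 0.0063), a call that was lost without replicate 2 of 36 h, at -0.10, and *Esrrb*, a nuclear receptor of the naive state, stood at 283 and 253 CPM at 0 h and 279 and 284 CPM at 36 h (log2 fold change 0.07, adjusted p 0.25). In *Esrrb* the 0 h and 36 h libraries overlapped. The naive factor *Tfcp2l1* rose, with 211 and 217 CPM at 0 h and 349 and 321 CPM at 36 h (log2 fold change 0.65, SE 0.0494, adjusted p 1.17e-10), whereas *Zfp42*, the marker REX1 whose promoter is shown above, stood at 327 and 328 CPM at 0 h and 229 and 218 CPM at 36 h (log2 fold change -0.55, SE 0.0406, adjusted p 1.7e-11). The surface protein gene *Pecam1* rose by 0.64.

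Trophectoderm genes rose. Of 25 transcription factors tested, 21 rose and 2 fell, with a median of 1.03, and 11 of the 12 early factors were among those that rose. After *Hand1* and *Cdx2*, the largest rise was that of *Elf5*, a factor of trophoblast stem cells, at 0.160 and 0.440 CPM at 0 h and 1.37 and 1.31 CPM at 36 h (log2 fold change 2.09, SE 0.380, adjusted p 7.29e-05), values that rest on few reads and that gave 3.03 without replicate 2 of 0 h. *Dlx3*, a placental homeobox factor, stood at 1.85 and 1.56 CPM at 0 h and 6.79 and 6.96 CPM at 36 h (log2 fold change 2.02, SE 0.165, adjusted p 1.22e-10). *Eomes*, a T-box factor of trophoblast stem cells, stood at 14.3 and 11.3 CPM at 0 h and 42.4 and 39.8 CPM at 36 h (log2 fold change 1.69, SE 0.0825, adjusted p 3.21e-15). In all 3 genes the 36 h pair lay above the 0 h pair. *Gata2* had a log2 fold change of 1.69, *Gata3* of 0.98 and *Tfap2c* of 0.84, whereas *Ovol2* fell by 0.68.

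Placental effectors also rose in most cases, 14 of 18 tested with 3 lower and a median of 0.96. After *Tmprss2* the largest were *Fabp3*, a fatty acid carrier, at 8.14 and 6.39 CPM at 0 h and 28.3 and 26.5 CPM at 36 h (log2 fold change 1.93, SE 0.106, adjusted p 8.82e-14), and *Wnt7b*, a Wnt ligand needed by the placenta, at 11.4 and 10.5 CPM at 0 h and 39.6 and 41.2 CPM at 36 h (log2 fold change 1.89, SE 0.0754, adjusted p 6.46e-17). Both genes showed no overlap between groups. The homeobox genes *Rhox6* and *Rhox9*, close relatives between which reads may be shared, had log2 fold changes of 1.41 and 1.39. *Fgfr2*, the receptor through which FGF4 maintains trophoblast stem cells, stood at 35.6 and 36.3 CPM at 0 h and 81.1 and 82.4 CPM at 36 h (log2 fold change 1.18, SE 0.0521, adjusted p 4.53e-16). The genes tested of the syncytiotrophoblast role, 2 of 4, both fell, and 5 of 8 genes of giant cells and spongiotrophoblast had too few reads to be tested.

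Genes of a simple epithelium rose in 26 of 39 tested, with 1 lower and a median of 0.39. The largest log2 fold change was that of *Slc34a2*, a phosphate carrier, at 1.74, with under 0.5 CPM in every library, and its call was lost without replicate 1 or 2 of 0 h, at 1.67 and 1.83, or replicate 1 of 36 h, at 1.56. *Cldn3* and *Cldn4*, sealing claudins, had values of 1.34 and 1.19, and *Dsc2*, a desmosomal cadherin, of 1.27. *Cldn4* stood at 89.6 and 91.2 CPM at 0 h and 198 and 214 CPM at 36 h (log2 fold change 1.19, SE 0.0505, adjusted p 2.3e-16). Of 6 keratins 5 rose and of 12 tight junction genes 8 rose, with none lower in either. The keratin pair *Krt8* and *Krt18* stood at 97.7 and 91.2 CPM at 0 h and 165 and 199 CPM at 36 h and at 143 and 144 CPM at 0 h and 249.9 and 268 CPM at 36 h. Each 36 h library was above each 0 h library in both genes, with log2 fold changes of 0.94 (SE 0.0731) and 0.85 (SE 0.0439). *Epcam* was the member that fell, by 0.17, and E-cadherin (*Cdh1*) had a log2 fold change of 0.02 (adjusted p 0.72).

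Primitive endoderm genes were mixed, with 8 of 18 tested higher, 3 lower and a median of 0.54. After *Gata6*, *Amn*, a subunit of the cubilin receptor, had the largest value, 1.71, followed by *Sox7*, a factor of this lineage that fell, with 1.81 and 1.39 CPM at 0 h and 0.482 and 0.487 CPM at 36 h (log2 fold change -1.70, SE 0.351, adjusted p 0.000339). *Dab2*, an endocytic adaptor, stood at 10.3 and 8.76 CPM at 0 h and 27.4 and 26.6 CPM at 36 h (log2 fold change 1.51, SE 0.0840, adjusted p 5.04e-14). Only 1 of the 6 transcription factors tested rose, *Gata6*, and 7 of 12 matrix and receptor genes did. Matrix genes as a wider list had 17 of 29 higher and 7 lower (median 0.38), with *Col4a1* and *Col4a2*, the collagen IV chains of basement membrane, at 1.09 and 0.98 and *Itga7*, a laminin receptor, at 1.05. Among 7 collagens 6 rose and none fell.

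Formative and primed epiblast genes had the lowest median of the 31 lists, -0.80, with 16 of 21 lower and 2 higher. Among their 9 transcription factors 8 fell and none rose. *Lef1*, a nuclear partner of β-catenin, stood at 26.4 and 25.3 CPM at 0 h and 7.08 and 7.49 CPM at 36 h (log2 fold change -1.83, SE 0.104, adjusted p 1.3e-13). *Foxd3*, a forkhead factor, stood at 14.2 and 12.7 CPM at 0 h and 4.06 and 4.18 CPM at 36 h (log2 fold change -1.70, SE 0.123, adjusted p 1.02e-11). *Pim2*, a kinase gene, stood at 45.5 and 46.4 CPM at 0 h and 16.4 and 15.4 CPM at 36 h (log2 fold change -1.53, SE 0.0727, adjusted p 2.06e-15). The 36 h libraries were the lower ones throughout, which for *Lef1* and *Foxd3* was a condition of their choice among the largest falls. *Zic2* and *Otx2*, factors of the epiblast as it leaves the naive state, fell by 1.44 and 1.14 on the log2 scale.

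Neural genes fell in 6 of 11 tested and rose in 3, with a median of -0.23. *Pax6*, a factor of eye and forebrain, stood at 10.9 and 11.2 CPM at 0 h and 3.10 and 3.80 CPM at 36 h (log2 fold change -1.69, SE 0.129, adjusted p 3.09e-11), and *Olig2* and *Nefl* fell by 1.40 and 0.82, whereas the tubulin gene *Tubb3* rose by 0.55. Mesoderm and primitive streak genes had 3 of 11 tested higher and 2 lower (median 0.02), with 1 higher when replicate 1 of 0 h or replicate 2 of 36 h was left out and with DESeq2. The largest values were those of *Foxf1*, 1.63, and *Gsc*, 1.06. The call of *Foxf1* was lost without replicate 2 of 36 h, at 1.41, and that of *Gsc* without replicate 1 of 0 h, at 0.96, or of 36 h, at 0.97. Fibroblast genes had 2 of 7 tested higher (median 0.47), *Col1a2* at 1.01, a call that DESeq2 did not make, and *Acta2* at 0.65. In the list of the epithelial-mesenchymal transition 6 of 16 tested were higher and 4 lower, with a median of 0.04. *Snai2* and *Snai1*, repressors of E-cadherin, had 1.93 and 0.84. Without replicate 2 of 36 h *Snai2* was at 1.26 and not called, and without replicate 2 of 0 h or replicate 1 of 36 h *Snai1* was at 0.66 and 0.70 and not called. Without replicate 2 of 36 h the list had 3 members higher.

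**Figure D3:**
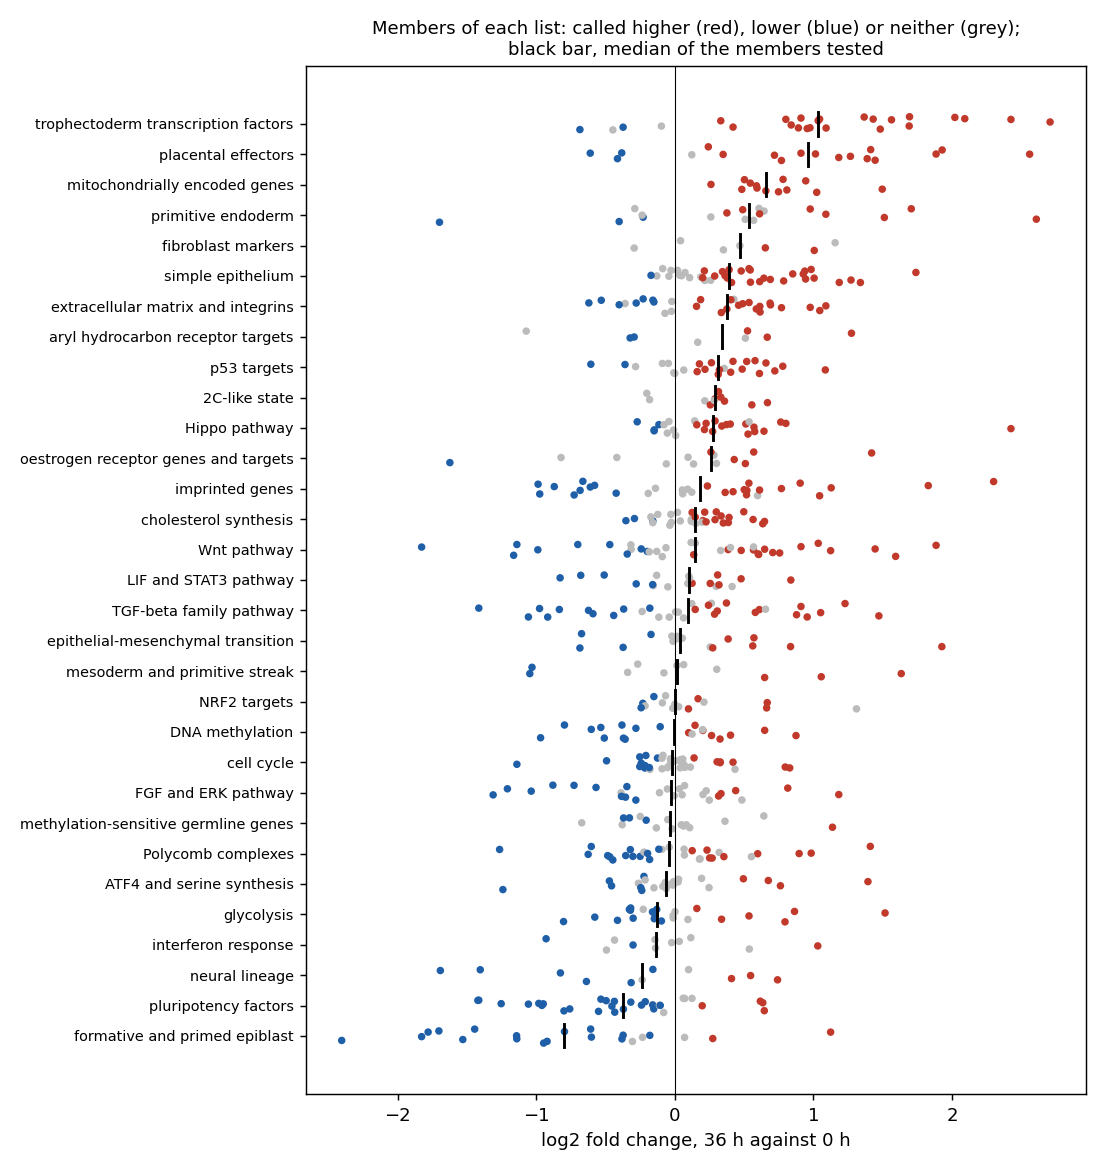
Log2 fold change of 36 h over 0 h (horizontal axis) of the tested members of 31 gene lists (vertical axis, ordered by median), in red for members that rose, blue for members that fell and grey for the rest, with a black bar at the median of each list. Medians run from -0.80 for formative and primed epiblast genes to 1.03 for trophectoderm transcription factors, and most lists hold members on both sides of 0.

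Wnt pathway genes rose in 15 of 35 and fell in 9, with a median of 0.15. By the labels the cells grew with a GSK3 inhibitor, which SL medium would not have kept. Of 8 ligands 7 rose and none fell, led by *Wnt7b* and then *Wnt6* (1.45). Receptors went both ways, with 4 of 9 higher and 3 lower. *Lgr5*, a receptor of R-spondins, stood at 0.120 and 0.135 CPM at 0 h and 0.281 and 0.535 CPM at 36 h (log2 fold change 1.59, SE 0.601, adjusted p 0.039), and the Frizzled receptor *Fzd5* stood at 58.2 and 56.3 CPM at 0 h and 29.4 and 28.2 CPM at 36 h (log2 fold change -0.99, SE 0.0612, adjusted p 4.77e-13). The groups were apart in both receptors, in opposite directions. The call of *Lgr5*, which rests on few reads, was lost when replicate 1 or 2 of 0 h was left out (1.52 and 1.68) or replicate 2 of 36 h (1.10). Of 5 nuclear factors 2 fell, *Lef1* the most. Target and inhibitor genes had 3 of 13 higher and 4 lower, with *Axin2*, a feedback inhibitor of the pathway, at 0.48 and *Sfrp1*, a secreted antagonist, at -1.16.

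FGF and ERK genes fell in 10 of 26 and rose in 5, with a median of -0.03. By the labels the cells grew with a MEK inhibitor, to which the same doubt over the medium applies. Within this list, which does not hold *Fgf15*, *Fgf10* had the largest fall, -1.31, at no more than 1.08 CPM, and its call was lost without replicate 1 of 36 h, at -0.84. *Myc* stood at 24.9 and 25.3 CPM at 0 h and 10.7 and 11.05 CPM at 36 h (log2 fold change -1.21, SE 0.0878, adjusted p 1.22e-11). *Fgf4*, the main FGF of ESCs, stood at 135 and 134 CPM at 0 h and 80.6 and 81.7 CPM at 36 h (log2 fold change -0.73, SE 0.0442, adjusted p 3.21e-13). The falls of both genes were far wider than the gap between replicates. Early response genes *Egr1* and *Etv5* fell by 1.04 and 0.57, while *Dusp6*, an ERK phosphatase, had a log2 fold change of -0.05 (adjusted p 0.4). *Fgfr2*, given with the placental genes, was the largest rise.

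In the LIF and STAT3 pathway 6 of 19 tested genes rose and 5 fell, with a median of 0.10. *Lifr*, the receptor of LIF, stood at 162 and 167 CPM at 0 h and 92.1 and 93.3 CPM at 36 h (log2 fold change -0.83, SE 0.0430, adjusted p 1.28e-14), and *Bcl3*, of the inhibitor family of NF-κB, had a log2 fold change of -0.68. TGF-beta family genes had 13 of 32 tested higher and 10 lower, with a median of 0.09. *Smad6*, an inhibitor of BMP signalling, stood at 14.5 and 12.3 CPM at 0 h and 36.1 and 37.95 CPM at 36 h (log2 fold change 1.47, SE 0.0796, adjusted p 2.92e-14). *Tgfbr2* and *Bmp7* rose by 1.23 and 1.05, while on the NODAL side *Skil*, *Tdgf1* and *Gdf3* fell. The NODAL antagonists *Lefty1* and *Lefty2* stood at 33.3 and 30.5 CPM at 0 h and 17.05 and 18.8 CPM at 36 h and at 61.7 and 57.6 CPM at 0 h and 39.1 and 38.3 CPM at 36 h. Both fell, by 0.83 and 0.62, with no overlap between groups.

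Hippo pathway genes rose in 16 of 27 and fell in 4 (median 0.27). All 6 coactivators and TEAD factors rose, with *Tead4*, the TEAD factor that trophectoderm needs, at 11.2 and 10.5 CPM at 0 h and 19.3 and 18.3 CPM at 36 h (log2 fold change 0.80, SE 0.0914, adjusted p 6.23e-08). Total counts taken without mitochondrial and rRNA genes left 2 members lower, as did leaving out replicate 1 of 0 h or replicate 2 of 36 h. *Cdx2*, counted here as a target, had the largest value, and *Ccn1*, a target of YAP, was at 0.76 and *Amot*, a junction protein that binds YAP, at 0.64.

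Targets of p53 rose in 16 of 25 and fell in 2 (median 0.31), and all 6 of the cell cycle arrest role rose. *Gdf15*, a secreted stress hormone, stood at 2.01 and 1.45 CPM at 0 h and 3.50 and 3.80 CPM at 36 h (log2 fold change 1.09, SE 0.197, adjusted p 7.01e-05). *Mdm2*, the ubiquitin ligase that limits p53, stood at 169 and 162 CPM at 0 h and 272 and 273 CPM at 36 h (log2 fold change 0.72, SE 0.0407, adjusted p 6.58e-14). *Btg2* and *Ccng1* rose by 0.78 and 0.66, and *Cdkn1a*, the p21 inhibitor, by 0.42. The 36 h libraries of *Mdm2* were nearly equal and above both 0 h libraries.

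Cell cycle genes had 7 of 37 higher and 10 lower (median -0.02), with total-count scaling giving 17 lower. That is 18.9% higher and 27.0% lower, beside 19.4% and 17.2% of all genes. *Ccnd2*, a D-type cyclin, fell by 1.14, and the inhibitors *Cdkn2b* and *Rb1* rose by 0.83 and 0.80. The stress lists moved little as a whole, and their counts are to be read beside the same shares of all genes. ATF4 and serine synthesis genes had 4 of 25 higher and 6 lower (median -0.06), or 11 lower with total-count scaling, with *Cebpb* at 1.39 and the arginine carrier *Slc7a3* at -1.24. NRF2 targets had 4 of 15 higher and 3 lower (median 0.00). *Nqo1* and *Srxn1* rose by 0.67 and 0.66, and the highest value in the list, that of another member, was 1.31. The counts moved over 1.5 times under several settings, to 2 higher and 5 lower with total-count scaling and 1 lower in the fit of only the 4 libraries. Interferon genes had 1 of 11 tested higher and 2 lower (median -0.14). *Ddx58*, the RNA sensor RIG-I, fell by 0.93, and *Ifih1* had 1.03, a call that was lost without replicate 1 or 2 of 0 h (1.09 and 0.96) or replicate 1 of 36 h (0.57).

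Since 4-OHT binds oestrogen receptors, their genes and targets were counted too. Of 13 tested 5 rose and 1 fell (median 0.26), with none of the 4 receptor genes tested changed, and without replicate 1 of 36 h 3 rose. *Myb* had the largest value, a fall with 10.4 and 10.99 CPM at 0 h and 3.34 and 3.65 CPM at 36 h (log2 fold change -1.62, SE 0.128, adjusted p 6.04e-11), and *Cited1* rose by 1.42. Of 8 aryl hydrocarbon receptor genes tested 3 rose and 2 fell (median 0.34), with *Cyp1b1*, a cytochrome P450, at 10.6 and 9.54 CPM at 0 h and 23.7 and 24.8 CPM at 36 h (log2 fold change 1.28, SE 0.0826, adjusted p 1.17e-12). Both 36 h libraries exceeded both 0 h libraries in *Cyp1b1*, and the reverse held in *Myb*.

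Chromatin genes went both ways. In the DNA methylation list 10 of 20 fell and 8 rose (median 0.00), and 5 of 7 writers fell. The count of 8 higher was 4 with total-count scaling, 5 when replicate 2 of 0 h was left out and 4 when replicate 1 of 36 h was. *Tet2*, a dioxygenase that removes methylation, stood at 177 and 172 CPM at 0 h and 90.8 and 87.5 CPM at 36 h (log2 fold change -0.97, SE 0.0442, adjusted p 8.82e-16). *Gadd45b*, of a family tied to demethylation, rose by 0.87. The writers *Dnmt3a*, *Dnmt3l* and *Dnmt3b* fell by 0.80, 0.53 and 0.38. Germline genes that methylation keeps silent had 1 of 16 higher and 3 lower (median -0.03), with *Taf7l* at 1.14 and *Mael* at -0.37, and 1 lower without replicate 1 or 2 of 36 h. *Mael* was at -0.24 and not called without the first of these. Polycomb genes had 13 of 31 lower and 9 higher (median -0.04). *Phf19*, an accessory subunit of PRC2, stood at 16.3 and 15.3 CPM at 0 h and 42.3 and 41.6 CPM at 36 h (log2 fold change 1.41, SE 0.0716, adjusted p 7.3e-15). *Phc1*, of PRC1, stood at 419 and 383 CPM at 0 h and 169 and 165 CPM at 36 h (log2 fold change -1.26, SE 0.0437, adjusted p 2.5e-18), and its relative *Phc2* rose by 0.98. The PRC1 relatives thus moved in opposite directions with no overlap between groups. The PRC2 core genes *Eed* and *Ezh2* fell by 0.62 and 0.48.

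Glycolysis genes had 12 of 23 lower and 6 higher (median -0.13), with 7 lower in the fit of only the 4 libraries. *Hk1* stood at 36.9 and 36.99 CPM at 0 h and 112 and 98.9 CPM at 36 h (log2 fold change 1.52, SE 0.0627, adjusted p 2.3e-16). *Hk2*, another hexokinase, stood at 315 and 343 CPM at 0 h and 194 and 184 CPM at 36 h (log2 fold change -0.80, SE 0.0447, adjusted p 5.2e-14). The first was higher and the second lower in both 36 h libraries. Per length of gene model the mean level was 4.33 FPKM for *Hk1* and 55.1 FPKM for *Hk2* at 0 h, and 12.4 and 31.6 FPKM at 36 h. Of the lactate dehydrogenase genes, *Ldhb* rose by 0.86 and *Ldha* fell by 0.58. Cholesterol synthesis genes had 15 of 30 higher and 3 lower (median 0.15), with *Mylip*, which degrades the LDL receptor, at 0.65 and *Pmvk*, a mevalonate pathway kinase, at 0.64, and the count lower was 7 with total-count scaling, 1 without replicate 2 of 0 h or of 36 h, and 5 without replicate 1 of 36 h.

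All 13 mitochondrially encoded protein genes rose, with a median of 0.66, beside the rise in the mitochondrial share of reads. *mt-Nd6*, the gene on the light strand, stood at 172 and 87.2 CPM at 0 h and 285 and 444 CPM at 36 h (log2 fold change 1.50, SE 0.389, adjusted p 0.034). *mt-Co1* stood at 1856 and 1893 CPM at 0 h and 2889 and 4331 CPM at 36 h (log2 fold change 0.95, SE 0.226, adjusted p 0.025). The 36 h replicates of both genes were far apart, and replicate 2 was the higher. In the fit of only the 4 libraries 7 of the 13 were called, and without replicate 2 of 0 h 5 were. *mt-Nd6* was not called without replicate 2 of 0 h, at 1.08, or replicate 2 of 36 h, at 1.15. *mt-Nd5* (1.02) was not called without replicate 2 of 0 h, at 0.90, and *mt-Co1* was not called without replicate 1 or 2 of 0 h, at 0.93 and 0.96, or replicate 2 of 36 h, at 0.62. The rRNA genes *mt-Rnr1* and *mt-Rnr2* rose by 0.59 and 0.96.

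Genes of the cleavage-stage (2C-like) state of rare ESCs, such as the *Zscan4* genes, rose in 7 of 11 tested with none lower (median 0.29), led by *Usp17la* at 10.6 and 9.30 CPM at 0 h and 14.96 and 16.6 CPM at 36 h (log2 fold change 0.67, SE 0.0980, adjusted p 3.72e-06), with *Zfp352* at 0.56, a call that was lost without replicate 1 of 0 h, at 0.43, or replicate 2 of 36 h, at 0.46. Several of these genes are near-identical copies, so reads may be shared between them. The groups did not overlap for *Usp17la*.

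Imprinted genes, which are expressed from 1 parental copy, had 14 of 30 tested higher and 9 lower (median 0.18). *H19*, a maternally expressed long RNA, stood at 196 and 175 CPM at 0 h and 922 and 901 CPM at 36 h (log2 fold change 2.30, SE 0.0495, adjusted p 1.13e-21). *Igf2*, its paternally expressed neighbour and a fetal growth factor, stood at 35.6 and 34.8 CPM at 0 h and 135 and 114 CPM at 36 h (log2 fold change 1.83, SE 0.0635, adjusted p 1.25e-17). Both genes of this domain were higher in both 36 h libraries. *Sgce*, the neighbour of *Peg10*, rose by 1.13. The counts do not separate parental alleles.

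In the domain from *Dlk1* to *Mirg* on chromosome 12, genes of both parental copies fell. *Meg3*, a maternally expressed long RNA, stood at 72.003 and 82.6 CPM at 0 h and 46.6 and 47.1 CPM at 36 h (log2 fold change -0.73, SE 0.0647, adjusted p 2.72e-09). *Dlk1*, a paternally expressed membrane protein gene, stood at 2.61 and 3.04 CPM at 0 h and 1.37 and 1.51 CPM at 36 h (log2 fold change -0.99, SE 0.203, adjusted p 0.00032). *Mirg* and *Rian*, the other maternally expressed host RNAs, fell by 0.66 and 0.42. All 36 h libraries of these genes lay below all 0 h libraries. At 24 h *Meg3* was at 0.03 against the same 0 h libraries, and 36 h against 24 h gave -0.76 (adjusted p 1.12e-08), where 8.13% of all genes were higher and 6.55% lower. The paternally expressed *Rtl1* had -0.87, and its call was lost without either 36 h replicate, at -0.69 and -1.05.

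The miRNA genes of this domain and of *Sfmbt2*, grouped after their values were seen, moved in opposite directions. Reads here come from a library of long RNA, so they show transcription over the hairpin, often of a host transcript, and not mature miRNA. A single arm is shown for 6 of the 8 genes of chromosome 12 that fell (RefSeq, GRCm38.p6, plus strand), since these sequences differ in their seeds except where a pair of genes encodes the same one. Capitals mark the seed, bases 2 to 8.
mmu-miR-3070-5p, from both *Mir3070a* (chr12:109587959-109587981) and *Mir3070b* (chr12:109588608-109588630): aGCCCCUGaccuugaaccuggga
mmu-miR-540-3p, *Mir540* (chr12:109586122-109586141): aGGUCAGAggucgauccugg
mmu-miR-666-5p, *Mir666* (chr12:109717103-109717124): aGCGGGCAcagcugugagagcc
mmu-miR-376c-5p, *Mir376c* (chr12:109722733-109722754): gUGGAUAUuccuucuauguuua
mmu-miR-453, *Mir453* (chr12:109735669-109735692): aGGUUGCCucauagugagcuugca
Among all genes tested 17.2% fell and 19.4% rose. Of 66 miRNA genes between *Dlk1* and *Mirg* 22 were tested, 8 fell and none rose, with a median of -0.91 and 20 of 22 negative. Their summed reads were 321 and 492 at 0 h and 172 and 193 at 36 h, or 12.9 and 16.6 CPM against 6.92 and 9.39 CPM. *Mir3070a* stood at 1.64 and 2.37 CPM at 0 h and 0.603 and 0.876 CPM at 36 h (log2 fold change -1.48, SE 0.310, adjusted p 0.000409). Both 36 h libraries were lower, and no other gene of the 8 had a higher level at 0 h in either replicate. *Mir666* and *Mir540* had values of -1.98 and -1.54, *Mir376c* of -1.21, *Mir453* of -1.15 and *Mir3070b* of -1.01. The other two genes that fell were *Mir1197*, at -1.40, and *Gm25252*, at -1.16. *Mir1197* was called in no fit that left out 1 of the 4 libraries, with values of -1.51 and -1.26 without 0 h replicates 1 and 2 and -1.11 and -1.70 without those of 36 h, and *Gm25252* was not called without replicate 2 of 0 h (-1.09) or of 36 h (-1.12). The first 5 lost their call in some setting. Without replicate 1 of 36 h they were at -3.56, -1.22, -0.50, -0.75 and -0.82, and of these *Mir666* alone was still called. Without replicate 2 of 36 h *Mir666* and *Mir540* were at -1.35 and -1.89 and not called, without replicate 2 of 0 h *Mir666*, *Mir540*, *Mir376c* and *Mir453* were at -1.73, -1.49, -1.17 and -0.91 and not called, and without replicate 1 of 0 h *Mir540*, *Mir376c* and *Mir3070b* were at -1.59, -1.25 and -0.79 and not called.

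Inside *Sfmbt2*, an imprinted Polycomb-like gene that carries a large miRNA cluster in an intron and is needed by trophoblast, 51 of 112 tested miRNA genes rose and none fell. Among all genes tested 19.4% rose and 17.2% fell. The median of the 112 miRNA genes was 0.85, and 111 of 112 were positive. Their summed reads were 1695 and 2438 at 0 h and 3242 and 2760 at 36 h, or 68.0 and 82.4 CPM against 130.3 and 134.3 CPM. *Sfmbt2* itself stood at 215 and 211 CPM at 0 h and 431 and 408 CPM at 36 h (log2 fold change 0.98, SE 0.0434, adjusted p 5.08e-16). The host gene and the summed cluster thus both lay higher in both 36 h libraries. *Mir466e* and *Mir669k* had values of 1.21 and 0.85. Members of the cluster are near-identical copies, so single values are uncertain. Of 36 tested miRNA genes elsewhere, 1 rose and none fell, with a median of -0.07. Their summed level was nonetheless lower at 36 h, at 104.6 and 111.4 CPM at 0 h and 75.1 and 77.0 CPM at 36 h.

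**Figure D4:**
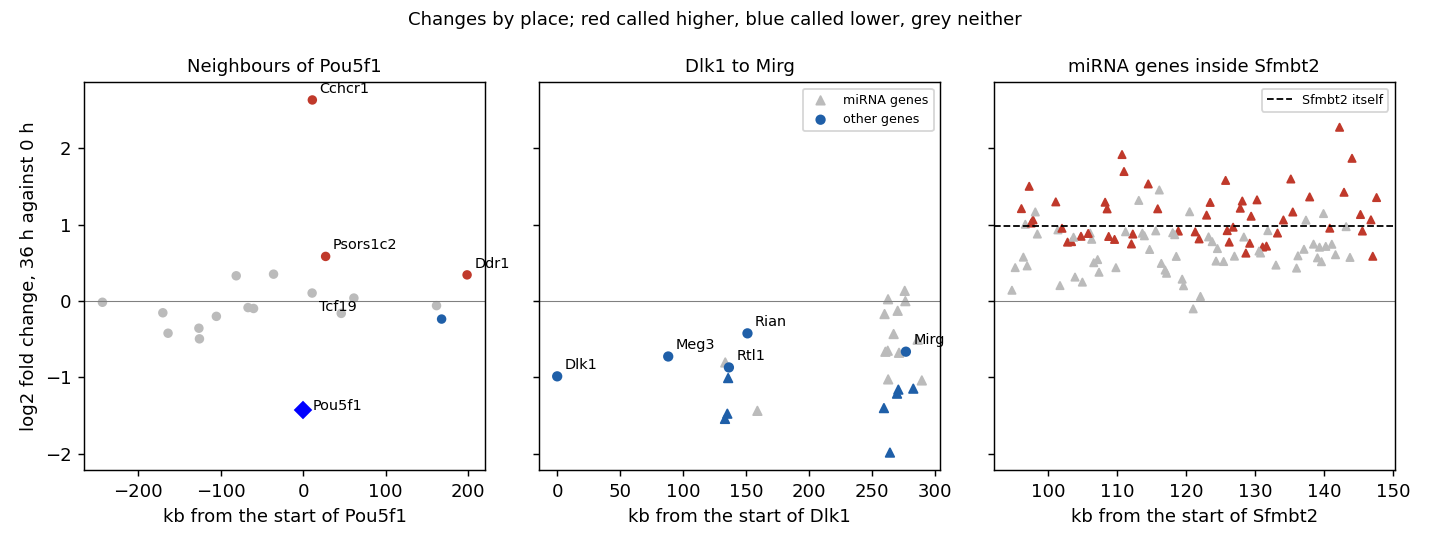
Log2 fold change of 36 h over 0 h (vertical axis, shared) by position in kb (horizontal axis) for tested genes within 250 kb of *Pou5f1*, for genes from *Dlk1* to *Mirg*, and for miRNA genes inside *Sfmbt2*, in red for genes that rose, blue for genes that fell and grey for the rest. *Cchcr1* stands alone near *Pou5f1*, the genes of the *Dlk1* domain lie mostly below 0, and those inside *Sfmbt2* lie around the dashed line of *Sfmbt2* itself at 0.98.

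Within 250 kb of *Pou5f1* 18 of 33 genes were tested, 3 rose and 1 fell, with a median of -0.07, where 19.4% of all genes rose and 17.2% fell. *Cchcr1* (ENSMUSG00000040312), a coiled-coil protein of the centrosome and of P-bodies, stood at 18.97 and 22.01 CPM at 0 h and 127 and 129 CPM at 36 h (log2 fold change 2.64, SE 0.0594, adjusted p 6.24e-22). Its replicates were close and its 36 h level was far above that of 0 h, and 36 h did not differ detectably from 24 h (log2 fold change -0.01, adjusted p 0.96). *Tcf19*, which lies between *Pou5f1* and *Cchcr1* on the opposite strand (chr17:35512734-35516824), stood at 10.5 and 9.40 CPM at 0 h and 11.3 and 9.88 CPM at 36 h (log2 fold change 0.11, adjusted p 0.51), so that its groups overlapped. *Psors1c2*, on the far side of *Cchcr1*, rose by 0.59, *Ddr1*, a collagen receptor, by 0.34, and *Gtf2h4*, a subunit of TFIIH, fell by 0.24. O4AID ESCs are a different line, in which IAA leads to degradation of OCT4 protein. By the methods of the study they are Oct4-/-, so the endogenous gene was already disrupted at 0 h. Their OCT4 comes from a transgene and carries a tag for degradation, and doxycycline silences another *Pou5f1* transgene. In that line *Cchcr1* stood at 26.0 CPM at 0 h and 23.5 CPM after 24 h of IAA, with 1 library at each time. Time and line differ, so no comparison was made.

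Genes with the largest changes differed in when they moved. The 12, 18, 24 and 36 h values share their 0 h libraries, so they are set side by side only. *Hand1* was at 0.16, 0.87, 1.48 and 2.71 in that order of time, and *Cdx2* at -0.17, 0.43, 1.01 and 2.43. *Cchcr1* was at 1.89, 2.46, 2.64 and 2.64, so most of its rise on the log2 scale had come by 12 h. From 24 h to 36 h the gain was 1.23 for *Hand1* (adjusted p 1.2e-12), 1.42 for *Cdx2* (adjusted p 3.76e-09) and 1.29 for *H19* (adjusted p 9.88e-16). Among falls, *Foxd3* and *Nr0b1* had reached -1.57 and -1.21 by 24 h, and their 36 h against 24 h values were -0.13 (adjusted p 0.61) and -0.04 (adjusted p 0.85). *Tdgf1* fell further after 24 h, by 0.55 (adjusted p 3.63e-09). Of the 616 genes higher and 304 lower by at least 1 at 36 h, 271 and 133 also passed the test of 36 h against 24 h in the same direction. Over all genes tested 8.13% were higher and 6.55% lower in that test. Both tests use the same 36 h libraries, so choosing genes by their 36 h change favours such passes.

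**Figure D5:**
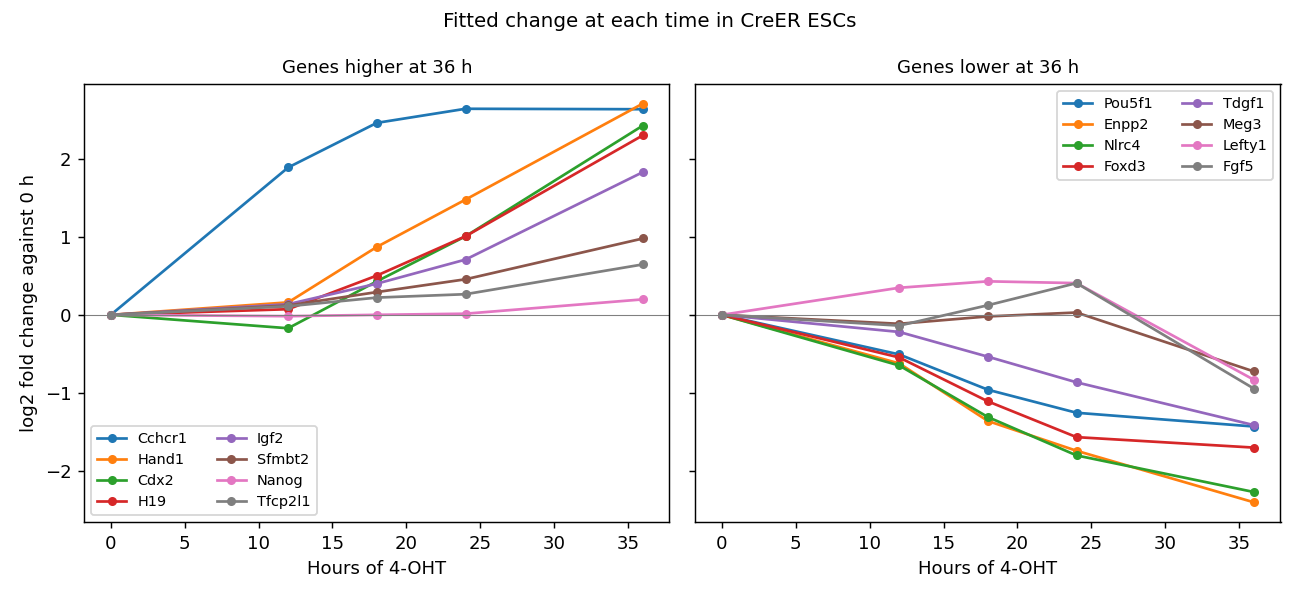
Fitted log2 fold change against 0 h (vertical axis) at 12, 18, 24 and 36 h of 4-OHT (horizontal axis, hours) for genes higher at 36 h (left) and lower at 36 h (right), 1 line a gene. *Cchcr1* is near its 36 h value of 2.64 from 24 h on, *Hand1*, *Cdx2* and *H19* still climb between 24 and 36 h, and *Meg3*, *Lefty1* and *Fgf5* are above 0 at 24 h and below it at 36 h.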

How the data were processed

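By the methods of the study, total RNA was depleted of rRNA and made into directional libraries, reads were trimmed with Trim Galore 0.1.4, aligned to GRCm38 with TopHat2 2.1.0 and counted per gene with featureCounts 1.5.1. The strand and multi-mapping settings are not given in the sources used here. The authors deposited raw counts per gene and library, with 48801 entries of which 92 were spike-ins with 0 reads. A deposited matrix of normalized values was not used.

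Genes were filtered with filterByExpr, scaled by TMM and fitted with the robust quasi-likelihood test of edgeR 4.0.16 (R 4.3.3) over all 10 CreER libraries, and 36 h was tested against 0 h with Benjamini-Hochberg adjustment. CPM and FPKM were computed from the counts, FPKM with the length of the gene model. The fit was tested on simulated data. Named genes were *Pou5f1*, the 12 largest rises and falls with a mean of at least 50 counts and no overlap in CPM, the 5 largest gains and losses in CPM, members of 31 lists with the largest changes, and genes within 250 kb of *Pou5f1*. The members and lists were chosen with earlier results of these data known. Other genes of lists, the miRNA genes and the promoters were named after their values were seen. Alternatives were other scalings, filters, libraries and blocks, DESeq2 1.42.0 and limma 3.58.1. Some members of the lists are not reported here by name. Motifs were searched on both strands, and 63.4% of tested genes had a promoter window.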

Additional observations from a re-analysis of the deposited data

Results flagged for a closer look

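For 3 genes the sign of the change differed between times, with each sign called and the change from 24 h to 36 h tested with edgeR. *Fgf5*, a growth factor of the primed epiblast, had a log2 fold change of 0.41 at 24 h and -0.95 at 36 h, each against 0 h, and -1.35 for 36 h against 24 h (adjusted p 4.99e-08). *Lefty1*, a NODAL antagonist, had 0.41 and -0.83, and -1.24 for 36 h against 24 h (adjusted p 2.89e-12). *Lefty2*, its neighbour and close relative, had 0.17 and -0.62, and -0.79 for 36 h against 24 h (adjusted p 9.63e-11). Each value rests on 2 libraries a time, and the 24 h and 36 h values share their 0 h libraries.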

How the results depend on the processing

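Over 17 alternatives the fall of *Pou5f1* was called throughout, from -1.52 to -1.36. Leaving out each library in turn gave 5627 to 6384 changed genes, 2933 to 3327 higher, 2629 to 3057 lower, 527 to 606 higher and 264 to 343 lower by a log2 fold change of at least 1, and 51.6% to 53.3% of changes higher. The other settings gave 5141 to 7498 changed genes. DESeq2 gave 397 genes higher by at least 1, a minimum of 10 counts in each of 4 libraries gave 198 lower by as much, and total-count scaling put 36.0% of changes higher, against 58.0% when mitochondrial and rRNA genes were first taken out of the totals. The count minimum leaves out genes that are low at 36 h, and the cause of the DESeq2 value was not tested. Of 161 named genes that were called, 136 were called in every alternative that tested them and none changed sign. The sign changed for 3 genes that were not called. *Esrrb* was at -0.0135 and *Cdh1* at -0.0646 with total-count scaling, and when each library was left out in turn *Esrrb* ran from -0.00638 to 0.15, *Cdh1* from -0.0194 to 0.0557 and *Tcf19* from -0.00399 to 0.19. The labels do not say whether equal replicate numbers mark paired libraries. The deviations of such libraries correlated at -0.14 to 0.14 over 10 pairs of times, with -0.14 for 0 h and 36 h. Values this low do not settle it, since a shared effect can be small beside the other differences between libraries. With the replicate block 6999 genes changed in the fit of 10 libraries and 5474 in that of 4, against 5775 without it. The crossed pairing, chosen after seeing the data, gave 6567. Total counts without mitochondrial and rRNA genes were also chosen then.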
